A study of Homo sapiens with 16 samples.

Results

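Of 16 RNA-seq libraries made from a lung carcinoma line, 8 held reads of PTPRC, the gene of the pan-leukocyte surface phosphatase CD45, and of other genes of cytotoxic lymphocytes. The set was chosen by a readout: at least 10 reads summed over the PTPRC transcripts. In each of the 2 lines it comprised DMSO replicate 1 and MS78 replicates 2, 3 and 4. PTPRC had 60 reads in Null DMSO 1, 99, 99 and 74 in Null MS78 2, 3 and 4, 55 in Y220C DMSO 1, and 70, 93 and 60 in Y220C MS78 2, 3 and 4. The other 8 libraries held 0 or 1 read, so no library lay near the threshold.

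The study profiled poly(A) RNA of the human lung carcinoma line NCI-H1299, which has no p53, and of NCI-H1299 cells that stably carry the p53 mutant Y220C. Cells received the compound MS78 at 10 µM or vehicle (DMSO) for 24 h, giving 4 groups of 4 libraries, named here by line (Null or Y220C), treatment and replicate. The medium of the Y220C line held G418 and that of the null line did not, so transgene and G418 cannot be told apart. The labels do not say whether the Y220C cells are 1 clone or a pool, nor whether replicates were separate cultures, so p-values measure only the spread between these samples. The labels name the carcinoma line only and no leukocytes in any group.

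Leukocytes derive from blood-forming stem cells, and in the libraries outside the set many of their defining genes had few or no reads. This did not hold for every gene that marks blood cells. Outside the set, the myeloid list gene CD68 had 1291 to 2373 reads and the NK list gene EOMES had 18 to 185. Reads of such a gene therefore do not by themselves mark leukocyte RNA. T cells are defined by the T cell receptor with its CD3 chains. NK cells carry receptors such as CD16 (FCGR3A) and receptor adaptors such as TYROBP. Both can kill target cells by releasing perforin and granzymes from granules. Many of these granule genes are shared between the 2 lineages, so a single granule gene does not tell them apart.

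Total estimated reads ranged from about 20317400 to 27746900 over the set and from 20651600 to 25896900 over the other 8 libraries, so the sets overlapped in depth.

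GZMB, the gene of the serine protease granzyme B, was read in every library of the set. It had 375 reads in Null DMSO 1, 481, 485 and 485 in Null MS78 2, 3 and 4, 406 in Y220C DMSO 1, and 402, 453 and 396 in Y220C MS78 2, 3 and 4. The 8 other libraries held 0 or 1 read. The groups did not overlap, and over the set the highest count was 485 and the lowest 375.

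GNLY, encoding the pore-forming granule peptide granulysin, ranged from 126 to 905 reads over the set and from 0 to 2 in the others. PRF1, encoding perforin, ranged from 148 to 337 against 0 to 1. NKG7, a granule membrane protein of NK and T cells, ranged from 86 to 284 against 0 to 1. The T and NK cell chemokine gene CCL5 ranged from 203 to 689 against 0 to 4. The T cell receptor component CD3E ranged from 7 to 39 reads and the adhesion receptor CD2 from 15 to 45, and both stood at 0 in each of the other 8. The 8 marker genes therefore divided the 16 libraries without overlap, as the choice of the set fixed for PTPRC.

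**Figure D1:**
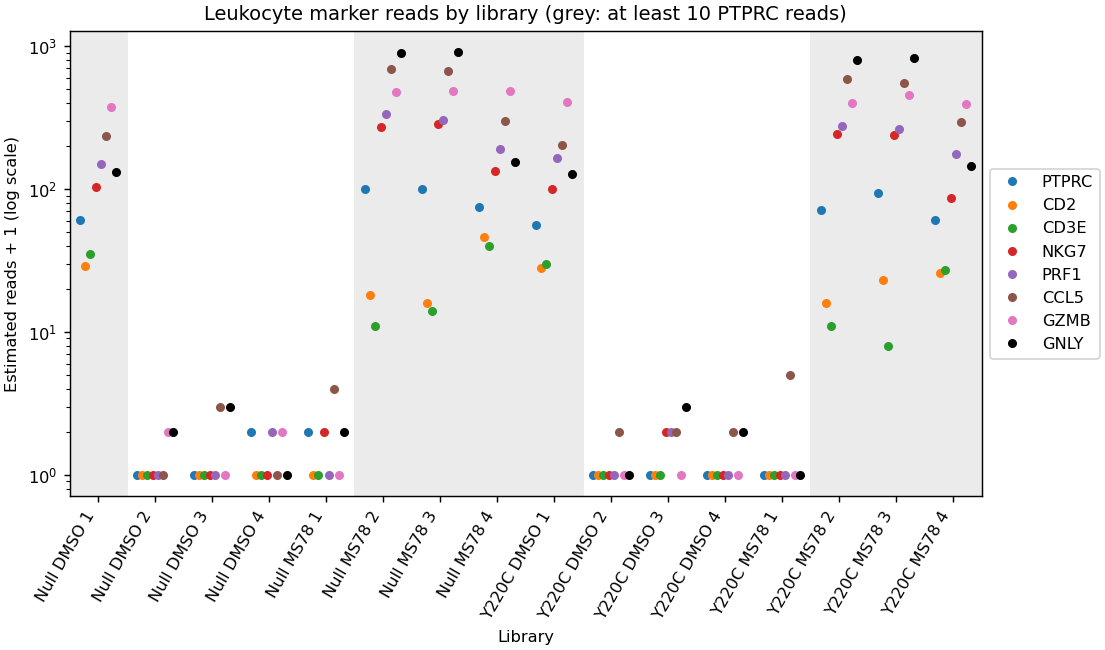
Estimated reads plus 1 (log axis) of 8 leukocyte marker genes in each of the 16 libraries, in colour by gene, with grey bands on the libraries with at least 10 PTPRC reads. GZMB lies between 375 and 485 reads in every banded library and at 0 or 1 elsewhere, where a value of 1 on the axis is 0 reads.

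A leukocyte-pattern gene was defined as having at most 1 read in each of the 8 libraries without PTPRC reads and at least 5 in each of the 8 with them, and 40 genes met this. No gene met the mirror rule. By TPM, the share of transcripts per 1000000 after allowing for transcript length, the pattern genes with the highest mean level in the set were GZMB (38.7 TPM), NKG7 (20.4), GZMA (13.4), CCL4 (6.26), CCL3 (6.10) and PRF1 (5.74). They were followed by CD52, TYROBP, GZMH, CST7, HLA-DQA1 and CCL4L2, at 2.41 to 4.71 TPM. These encode granule proteases, perforin, a granule membrane protein, the protease inhibitor cystatin F (CST7) and inflammatory chemokines. The others encode a leukocyte surface glycoprotein, an NK and myeloid adaptor and an MHC class II chain.

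The 40 genes together made up a small share of each library. In Null DMSO 1 they held 1547 reads, or 68.9 reads per 1000000 (95% Wilson interval 65.6 to 72.4), and in Y220C DMSO 1 they held 65.7 reads per 1000000. The 6 MS78 libraries of the set held 78.6 to 102 reads per 1000000. The libraries without PTPRC reads held 2 to 9 such reads in all, or 0.0887 to 0.399 reads per 1000000. These intervals cover counting error only. In bulk RNA, fewer cells and less RNA per cell cannot be told apart.

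The set term of the fit across 15687 genes called 151 genes higher (background 0.963%) and 3 lower (background 0.0191%) in the libraries with PTPRC reads. The same contrast defined the set, so these counts describe it and carry no p-value. Of the 151 genes, 40 were the pattern genes, 6 were host-line genes with at least 1 read per 1000000 (CPM) in the libraries without PTPRC reads, and 105 were neither. Reads were higher in every library of the set than in any library outside it for 130 of the 15687 genes (0.829%).

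Genes shared by all leukocytes were present. Of 19 pan-leukocyte genes, 16 were called higher, beside 0.963% of all genes, a share that applies to the list counts below too. The 16 include PTPRC, which defined the set. Genes nearly unread outside the set passed the filter on low counts only through the libraries of the set. The list counts therefore describe the set and test nothing about it. Each of the 19 had at least 5 reads in every library of the set. Some had as many in every other library too: CORO1A (40 to 233), LAPTM5 (5 to 51), CD37 (11 to 23) and ARHGDIB (8 to 26). For these, reads in the set do not by themselves mark leukocyte RNA. LCP1, an actin-bundling protein of blood cells, had 133 to 292 reads against 1 to 8. SRGN, encoding the granule proteoglycan serglycin, had 97 to 162 against 0 to 3, and ITGAL, the integrin chain of LFA-1, had 37 to 92 against 0 to 2.

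Genes of T and NK signalling followed. Of 17 members, 15 could be tested and 12 were called higher. LCK, the T cell receptor kinase, had 20 to 45 reads against 0 to 5, while IL2RB, the shared IL-2 and IL-15 receptor chain, had 58 to 96 against 2 to 11. IL2RG, the common cytokine receptor chain, had 39 to 71 reads against 0 to 4.

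Among 13 cytotoxic granule genes, 11 were tested and 10 were called higher. GZMA, the other main granzyme of killer lymphocytes, had 102 to 159 reads against 0 to 1, and CTSW, a lymphocyte protease, had 49 to 88 against 0 to 3. Among the 12 lymphocyte cytokines and chemokines, 8 were tested and 7 were called higher. IFNG, the interferon of activated T and NK cells, had 7 to 25 reads against 0.

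Genes of the T cell lists were present at lower levels, and whether their reads came from T cells or NK cells was not tested. TRBC2, a T cell receptor beta constant gene, had 11 to 29 reads in each library of the set and 0 in the others, and TRDC, the delta constant gene, had 10 to 23 against 0. The gamma constant genes had few reads in the set, 0 to 3 for TRGC1 and 0 to 1 for TRGC2, and both stood at 0 outside it. TRAC, the alpha constant gene, was read in 4 of the 8 libraries, at 5 to 9 reads, and stood at 0 in the other 4. CD8A, the CD8 alpha chain, had 9 to 31 reads against 0 to 2. CD4, the helper lineage coreceptor, had 0 to 7 reads in the set and 0 to 8 outside it. FOXP3, the regulatory T cell factor, had 3 to 10 against 3 to 13. CD4 and FOXP3 therefore overlapped between the sets. Of the 6 members of the list of CD4 and regulatory T cell genes, 2 were tested and both were called higher in the set. They were IL2RA, with 9 to 69 reads against 0, and CCR4, a chemokine receptor, with 5 to 16 against 0 to 8.

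NK-associated genes were also present. Of 20 NK genes, 11 were tested and 7 were called higher. KLRD1, the CD94 chain, had 12 to 35 reads against 0 to 3, and KLRC1, its NKG2A partner, had 10 to 26 against 0. NCAM1 (CD56) had 8 to 23 against 2 to 11, and the host line transcribes it at a low level.

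Genes that mark other blood cells were not called for the set where they could be tested. Of 13 B or plasma cell genes, 3 were tested and 0 were called (edgeR, adjusted 0.05, 0 at an unadjusted p below 0.05). Of the 15 myeloid genes, 3 were tested and 0 were called (0 unadjusted). These 3, CD68, VCAN and ITGAM, averaged 73.3, 9.07 and 2.36 CPM in the libraries without PTPRC reads. The tested B cell gene PAX5 averaged 0.50 CPM there. The host line thus transcribes these genes itself, so their tests could not show whether a trace of such cells was absent. S100A8, FCN1 and MPO, which mark neutrophils and monocytes, stood at 0 reads in every library of the set, as did CD1C, CLEC9A and CLEC10A of dendritic cells. HBB, PF4 and CD34, genes of red cells, platelets and progenitors, also stood at 0. None of the 7 dendritic cell list genes could be tested. Among them, IL3RA had 3 to 13 reads in the set against 1 to 8 outside it, without overlap in the null line. The summed B and plasma cell level was 1.37 to 2.56 CPM in the set and 1.08 to 2.63 outside it, and the erythroid level was at most 0.63 CPM in either.

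MHC class II genes were read with the lymphocyte genes. Of 7 members, 4 were called higher. CD74, the invariant chain, had 207 to 446 reads against 1 to 7, and HLA-DRA had 52 to 78 against 0 to 7. Class II is carried by B cells and myeloid cells and also by activated human T and NK cells. Which cells the class II reads came from was not tested. The tests of B and myeloid genes above could not show whether a trace of such cells was absent.

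The 8 libraries differed among themselves in which lymphocyte genes they held. FCGR3A, the gene of CD16, which lets NK cells recognise antibody-coated targets, had 45 reads in Null MS78 2, 36 in Null MS78 3, 39 in Y220C MS78 2 and 30 in Y220C MS78 3. It had 0 reads in DMSO 1 and in MS78 4 of both lines, and 0 in each of the libraries without PTPRC reads. This split was noticed in the values and is described without a test. It fell on replicates 2 and 3 of MS78 against DMSO replicate 1 and MS78 replicate 4, alike in both lines.

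FCGR3A has a near-identical neighbour, FCGR3B, the granulocyte gene on chromosome 1. FCGR3A lies at chr1:161541759-161550737 and FCGR3B at chr1:161623196-161631963, both on the minus strand of hg38 (GENCODE 29). The first 60 bases of their coding sequences, counted from the start codon of the GENCODE 29 transcripts, are printed to show how close the copies are, with the 3 differing bases in capitals.
FCGR3A: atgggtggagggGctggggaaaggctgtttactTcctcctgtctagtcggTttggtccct
FCGR3B: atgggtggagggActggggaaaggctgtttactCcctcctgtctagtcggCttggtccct
Over 810 aligned coding bases the copies are 98.4% identical, and 40.3% of the 31-base words of FCGR3A transcripts also occur in FCGR3B. FCGR3B was estimated at 0 or 1 read in each of the 8 libraries, so the authors' estimates placed the reads on FCGR3A, but how the software divides reads between the 2 copies was not tested.

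The libraries with FCGR3A reads held more of several killer-cell genes. GNLY had 890 and 905 reads in Null MS78 2 and 3 and 796 and 824 in the Y220C pair, against 131 and 126 in DMSO 1 and 154 and 144 in MS78 4 of the null and the Y220C line. The mean level was 37.8 ± 4.51 CPM (SD, n = 4) against 6.45 ± 1.09 (SD, n = 4), or 5.86-fold. GZMK, a granzyme of memory T and NK cells, had 20 to 39 reads against 1 to 4. GZMH had 57 to 72 reads against 7 to 15, or 6.33-fold on mean CPM, and GIMAP4, a lymphocyte GTPase, had 50 to 64 against 7 to 11. CST7, the granule inhibitor cystatin F, was 3.45-fold higher, NKG7 2.35-fold, TYROBP 2.15-fold and PRF1 1.65-fold.

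Of the 13 NK cell list genes with at least 40 reads summed over the set, 7 were higher in the FCGR3A libraries of each line without overlap. None was lower and 6 overlapped, among them KLRD1, CD244 and FCER1G. Over all genes tested, 5.26% were higher and 3.9% lower in this way. The 7 include FCGR3A, for which the split fixed the outcome. They also include EOMES, which averaged 3.74 CPM in the libraries without PTPRC reads and so is a gene of the host line too. SH2D1B, an adaptor of NK receptors, had 27 to 48 reads against 7 to 13. KLRK1 (NKG2D) had 16 to 26 reads against 0 to 8, and KLRC1 had 21 to 26 against 10 to 15.

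The 4 libraries without FCGR3A reads held more of CD3D, CD3E and CD3G. CD247, the CD3 zeta chain that NK cell receptors also use, lay the other way, with 12 to 29 reads there against 57 to 96. CD3E had 34, 39, 29 and 26 reads there against 10, 13, 10 and 7, so the groups did not overlap, and the mean was 3.38-fold higher. CD3D had 11 to 18 reads against 4 to 8, and CD3G had 5 to 17 against 1 to 4. IL2RA, the high-affinity IL-2 receptor chain of activated T cells, had 40, 69, 47 and 49 reads against 14, 15, 9 and 11, or 4.47-fold. CSF2RB, the shared receptor chain for IL-3, IL-5 and GM-CSF, had 9 to 21 against 0 to 2. CTLA4, the T cell inhibitory receptor, had 4 to 9 reads against 0 to 1, and BATF, a transcription factor of activated lymphocytes, had 21 to 31 against 9 to 13. Of the 6 activation and checkpoint genes with at least 40 reads summed over the set, 2 were higher in these libraries without overlap (IL2RA and LAG3), 2 were higher in the FCGR3A libraries (TIGIT and HAVCR2) and 2 overlapped. CD2 was 1.87-fold and IFNG 2.27-fold higher in the same libraries.

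Other genes stood alike across the 8. GZMB averaged 20.2 CPM in the libraries with FCGR3A reads and 19.3 in those without, a ratio of 1.05. The ratio was 0.880 for GZMA, 1.02 for CD52, 1.01 for TRBC2 and 0.989 for ZAP70, the kinase that binds CD3 zeta. For these genes the values of the 2 groups overlapped. The values of TRDC also overlapped, at a ratio of 0.793. TRBC2 and TRDC thus did not divide the libraries as CD3E did, at a ratio of 0.296.

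**Figure D2:**
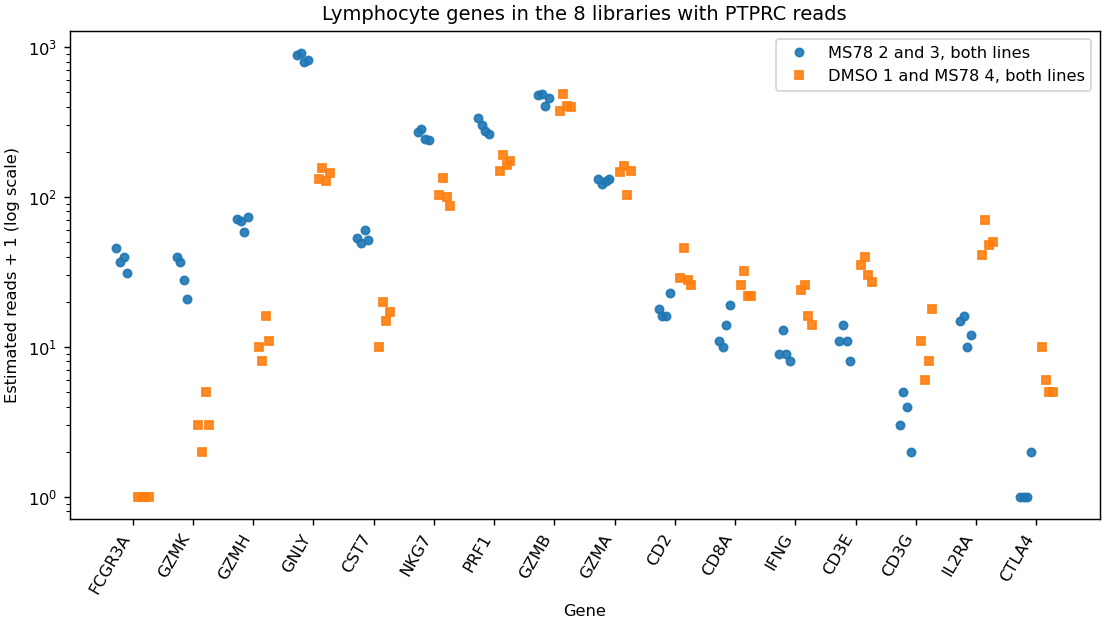
Estimated reads plus 1 (log axis) of 16 lymphocyte genes in the 8 libraries with PTPRC reads, each point 1 library, blue for replicates 2 and 3 of MS78 and orange for DMSO replicate 1 and MS78 replicate 4. FCGR3A, GNLY and GZMH are higher in blue, CD3E and IL2RA are higher in orange, and GZMB lies at 375 to 485 reads in both.

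Over the 40 pattern genes, 12 were higher and 6 were lower in the libraries with FCGR3A reads without overlap in both lines (background 5.26% and 3.9% of all 15687 genes). Across the 40 genes, the levels (log2 of CPM + 1) of 2 libraries that both held FCGR3A correlated at 0.978 to 0.986 (Pearson), those of 2 that both lacked it at 0.957 to 0.970, and those of mixed pairs at 0.779 to 0.850. These are correlations across genes, which are not independent replicates, and the genes share each library's depth. Pairs of FCGR3A libraries from different lines correlated at 0.978 to 0.985 and pairs from 1 line at 0.982 to 0.986.

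The 2 lines were compared among the 8 libraries in a fit across all genes with treatment as a term (edgeR quasi-likelihood, 5 residual degrees of freedom). Of the 40 pattern genes, 0 were called between the lines and 0 had an unadjusted p below 0.05, against a background of 54.6% of genes called. DESeq2 also called 0. The log2 differences (Y220C over null) ran from −0.50 to 0.54 with a median of 0.06 and a median standard error of 0.31, and the lowest adjusted p (edgeR) was 0.181. Even the largest of these differences, which exceeded the median standard error, had no unadjusted p below 0.05 (edgeR). Line differences of that size could thus have gone uncalled with this number of libraries.

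The same fit compared the 6 MS78 libraries of the set with the 2 DMSO libraries. Of the 40 pattern genes, 6 rose and 0 fell (edgeR, adjusted 0.05, against a background of 22.2%), and 13 had an unadjusted p below 0.05. PRF1 was higher with MS78 by a log2 of 0.80 (SE 0.18, adjusted p = 0.00737). Among the others were CST7 (1.91, SE 0.52), SASH3, a lymphocyte adaptor (1.36, SE 0.36), NKG7 (1.12, SE 0.34) and CD48, a ligand of NK receptors (1.07, SE 0.29). FCGR3A reads moved with this comparison, since all 4 libraries that held them were MS78 libraries. With a second term for the FCGR3A libraries, chosen after seeing the data, 1 of the 40 was called, and leaving out Y220C DMSO 1 left 2. MS78 replicate 4 lay near DMSO replicate 1 in such genes: NKG7 had 132 and 86 reads in MS78 4 of the 2 lines and 102 and 99 in DMSO 1, against 237 to 284 in MS78 2 and 3.

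Genes that the carcinoma line itself transcribes could be misread where lymphocytes also express them. Host-line genes, 13461 in all, were those that averaged 1 CPM or more where PTPRC reads were lacking, and 9 of them (0.0669%) were called for the set, 6 higher and 3 lower. As these come from the contrast that defined the set, their differences are given without a p. At an unadjusted p below 0.05 there were 739 host-line genes, 279 of them higher. The count of 9 was not stable: it ran from 5 (without Null DMSO 4 or Null MS78 1) to 17 (without Y220C DMSO 2) with 1 library left out.

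CSF1, the macrophage growth factor gene, had the same direction in every group. It stood at 4.63 CPM in Null DMSO 1 against 1.42, 1.94 and 1.33 in Null DMSO 2, 3 and 4, and at 4.28, 4.31 and 7.18 in Null MS78 2, 3 and 4 against 1.91 in Null MS78 1. In the Y220C line it stood at 5.91 against 2.61, 2.16 and 2.18 with DMSO and at 6.47, 5.89 and 8.22 against 3.29 with MS78. The sets did not overlap within either line or over both, and the mean was 2.79-fold higher in the libraries with PTPRC reads.

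IL32, a cytokine gene of T and NK cells, stood at 11.97 CPM in Null DMSO 1 against 1.92 to 2.59 in the other Null DMSO libraries, and at 16.4 in Y220C DMSO 1 against 6.22 to 7.42. Its values were higher in the libraries that lacked FCGR3A: Null MS78 4 stood at 14.6 CPM against 7.16 and 8.33 in Null MS78 2 and 3, and Y220C MS78 4 at 19.4 against 12.1 and 11.9. LAPTM5, a lysosomal protein of blood cells, averaged 3.96 CPM in the set and 1.04 in the others, a ratio of 3.79. CORO1A, the leukocyte coronin, averaged 10.4 against 5.93 CPM, and its sets overlapped over all libraries but not within a line. FAM107B was higher by a log2 of 0.64 and overlapped in the Y220C line. A gene listed only as ENSG00000260342 had 6 to 299 reads in the set and 0 to 146 in the others, with overlap in both lines.

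The genes called lower were MT-CO2, a mitochondrial subunit of cytochrome c oxidase, ABHD3, a phospholipase, and ANKRD18A, by log2 differences of −0.18, −0.19 and −1.53. In the null line MT-CO2 and ABHD3 did not overlap between the sets, with all 4 libraries of the set lower. In the Y220C line all 3 overlapped, as ANKRD18A did in the null line too.

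**Figure D3:**
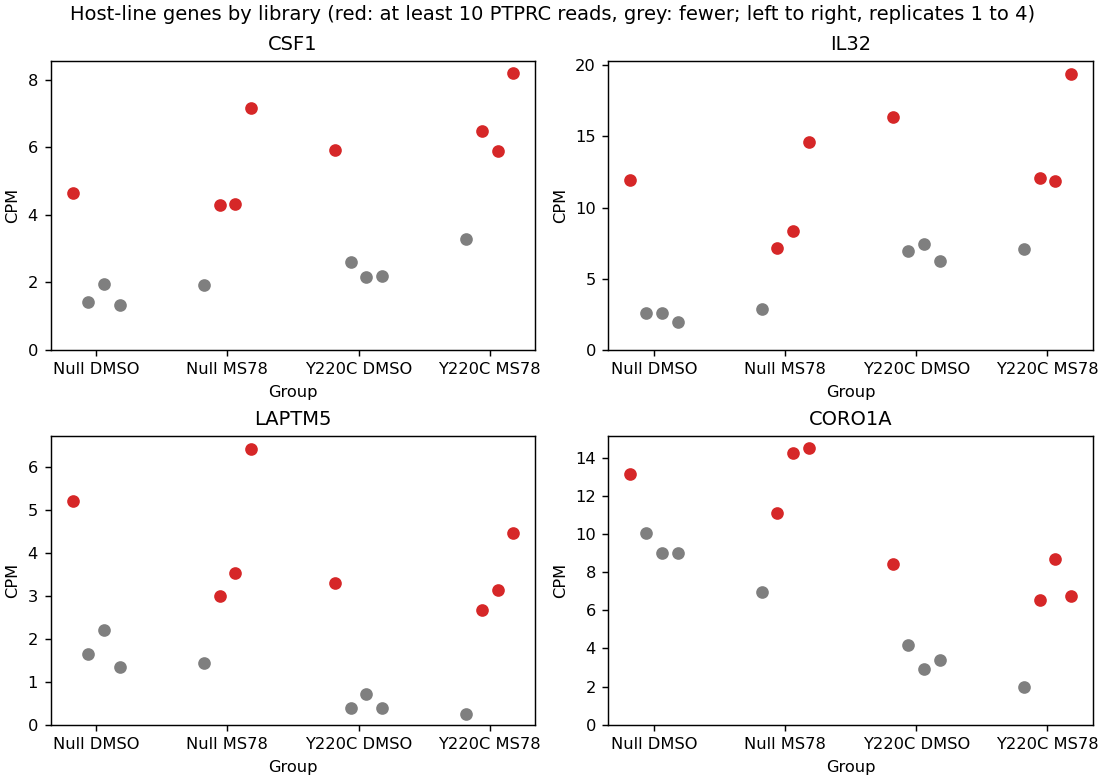
Reads per 1000000 (CPM) of CSF1, IL32, LAPTM5 and CORO1A in the 4 groups, each point 1 library in order of replicate, red for libraries with at least 10 PTPRC reads and grey for the others. Within every group the red points lie above the grey ones, as in CSF1 with 4.63 against 1.33 to 1.94 in Null DMSO.

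Lists of genes that the carcinoma line itself expresses showed small differences between the sets. Of the 13 HLA class I presentation genes, 0 were called for the set by edgeR (7 at an unadjusted p below 0.05), with a median log2 difference of 0.09. Of 25 interferon-stimulated genes, 20 were tested and 2 were called higher: GBP2, an interferon-induced GTPase, had 38 to 75 reads against 9 to 27, and OAS2, an RNA sensor, had 4 to 20 against 0 to 6. The median over the 20 was 0.03. Of 16 NF-kB and inflammation genes, 13 were tested, 0 were called by edgeR (2 unadjusted) and the median was 0.00. Of the 13 mitochondrially encoded genes, 1 (MT-CO2) was called, lower, 9 had an unadjusted p below 0.05 and the median was −0.11. The median of all genes was 0.00.

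The set was spread unequally over the treatments: 1 of 4 libraries in each DMSO group and 3 of 4 in each MS78 group. A comparison of MS78 with DMSO therefore carried the leukocyte genes with it. Without a term for the set, the log2 fold changes of all 40 pattern genes were above 0 in both lines, with medians of 1.88 in null and 1.96 in Y220C cells, against 0.01 and −0.01 over all genes. Of the 40, 3 were called in null cells (background 28.1%) and 3 in Y220C cells (background 48.5%), and 8 in each line had an unadjusted p below 0.05. With the term the medians were 0.30 and 0.51, and 26 and 33 of the 40 were above 0.

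**Figure D4:**
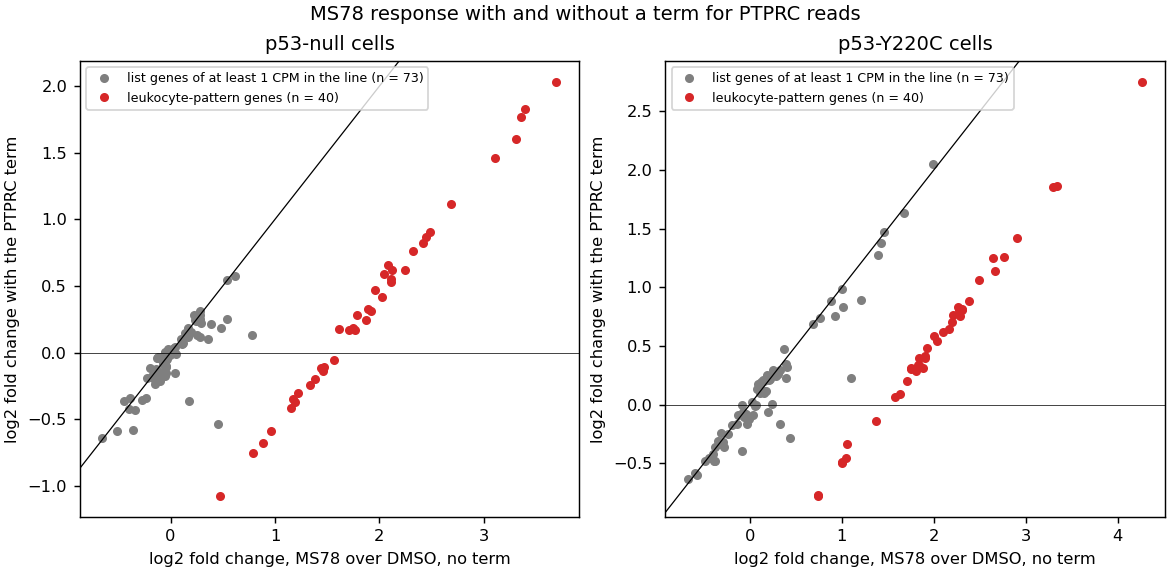
Log2 fold change of MS78 over DMSO without (x) and with (y) a term for PTPRC reads, in p53-null (left) and p53-Y220C cells (right), each point 1 gene and the line marking equality. The 40 leukocyte-pattern genes (red) lie below the line at medians of 1.88 and 1.96 without the term, while most of the 73 list genes of the host line (grey) lie near it.

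Calls that changed are given by the largest shift in fold change. In null cells the calls lost with the term were those of CST7, GZMH, ADGRG3, FCGR3A, GZMK and SH2D1A, an adaptor of T and NK cells. For GZMH the log2 fold change went from 3.70 (adjusted p = 0.0464, edgeR) to 2.03 (SE 0.96, adjusted p = 0.136). The calls gained were those of PRF1, NKG7, CCL5, CD74, LCP1 and HLA-DPA1. PRF1 went from 2.42 (adjusted p = 0.150, edgeR) to 0.82 (SE 0.24, adjusted p = 0.0139), and its value with the term was −0.077 without Null DMSO 1. With the PTPRC level as a covariate in place of the set, none of these 6 was called, and the log2 values of PRF1, NKG7, CD74 and LCP1 were −0.43, −0.21, −0.32 and −0.018. With a replicate block the calls of PRF1, CD74, NKG7 and HLA-DPA1 were lost, at −0.50 for PRF1 and −0.37 for CD74. In Y220C cells GZMH, FCGR3A, GZMK, SH2D1A, CD244 and FASLG were lost, and CD74, PRF1, NKG7, GZMA and ENSG00000283149 were among those gained. ENSG00000283149 was lower with MS78, at −7.66, and the other 4 were higher. Its value rested on Y220C DMSO 1, with 35 reads against 0 in every other Y220C library. With the covariate CD74, PRF1, NKG7 and GZMA had log2 values of −0.28, −0.62, −0.38 and −0.62, and with the block CD74, PRF1 and GZMA had −0.25, −0.57 and −0.046. None of these 4 was called in either setting, and ENSG00000283149 was not called with the block. GNLY was called higher with MS78 in both lines with and without the term, at log2 values with the term of 2.17 (edgeR adjusted p = 0.0368) and 2.41 (adjusted p = 0.0124). With 2 terms, for PTPRC and FCGR3A, 0 of the 40 pattern genes were called in null cells (edgeR, 3 at an unadjusted p below 0.05) and 1 in Y220C cells.

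In null cells 4024 genes (25.7%) were called for MS78 with the term and 4402 without, of which 3807 were shared, 595 were lost and 217 were gained. In Y220C cells 7260 (46.3%) were called with and 7611 without, with 6986 shared, 625 lost and 274 gained. No shared call changed sign. Host-line genes made up 558 of the 595 lost and 198 of the 217 gained calls in null cells, and 542 of 625 and 234 of 274 in Y220C cells, beside 85.8% of all 15687 genes tested. The median shift of log2 fold change among the host-line genes that lost a call was 0.02 in null and 0.02 in Y220C cells, and over all 13461 host-line genes 688 and 662 shifted by more than 0.1.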

How the data were processed

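Per the file headers, each library's deposited table gives, for each transcript, its length and effective length, the authors' TPM value and the authors' estimated count of reads, in the column layout of Salmon. Per the submitters' processing notes, FastQC 0.11.8 was used and the build was hg38; the quantifier's settings were not given. Transcript lengths as deposited by the authors served only for the length-scaled alternative (unit other).

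Estimated counts were summed per gene with GENCODE 29 and rounded. A library joined the set at 10 or more PTPRC reads. edgeR 4.0.16 (R 4.3.3; TMM, filterByExpr, quasi-likelihood, Benjamini-Hochberg, adjusted 0.05) was fitted on 15687 genes and 16 libraries with 1 mean per group and a 0 or 1 term for the set (11 residual degrees of freedom), and on the 8 libraries of the set with line and treatment. CPM values are relative to TMM-adjusted library sizes, and log2 CPM used a prior count of 2. The fits were tested on simulated data. DESeq2 1.42.0 was an alternative. Libraries of a group differed by more than counting noise (mean chi-square per gene 2.53 to 11.3), so none was counted as a duplicate. The members and gene lists were chosen with earlier results of these data known, and the FCGR3A split after seeing values. Genes were named by rule: the 8 markers, the 12 pattern genes of highest mean TPM, up to 4 members of each list, the host-line genes called, and up to 6 genes called in each direction within the set or losing or gaining an MS78 call. The genes described for the FCGR3A split, and a few list members beyond these, were named after their values were seen. Y-linked genes, T cell receptor variable segments, some polymorphic receptor and HLA genes and 1 further gene that met the naming rule are not reported here.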

Additional observations from a re-analysis of the deposited data

Results flagged for a closer look

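Gaps between 1 library and the rest were examined in 58 groups of values, and 7 stood beyond the 95% critical value of Dixon's ratio (gap over range); chance alone flags about 1 in 20 groups. Over the 8 libraries with PTPRC reads, CD2 in CPM had a ratio of 0.582, from Null MS78 4 with 45 reads. Total reads in Null DMSO had a ratio of 0.954, where replicate 4 was the deepest. IL32 in Null DMSO (0.934), and LAPTM5 (0.891), IL32 (0.882) and CSF1 (0.881) in Y220C DMSO, were each set apart by replicate 1, the only library of its group with PTPRC reads. ANKRD18A in Y220C DMSO had a ratio of 0.904, from replicate 2 with 29 reads against 8 to 10.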

How the results depend on the processing

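Depth limits single genes, many of which rest on fewer than 50 reads. The 40 pattern genes became 91 with at most 3 and at least 3 reads and 7 with 0 and at least 10, and ranged from 40 to 44 with 1 library left out. The 154 genes called for the set were 418 with no filter on low counts and 132 to 159 with 1 library left out. The 9 host-line genes were 16 with DESeq2, 121 with no filter, 5 with length-scaled TPM, 3 at 5 CPM or more, and 5 to 17 with 1 library left out (5 without Null DMSO 4 or Null MS78 1, 17 without Y220C DMSO 2). The 6 pattern genes called for MS78 within the set were 11 with no filter, 1 with length-scaled TPM, 1 with 2 terms, and 2 (without Y220C DMSO 1) to 10 (without Y220C MS78 4). The 4024 MS78 calls in null cells were 2576 with length-scaled TPM, 2403 in the libraries with PTPRC reads and 1093 in those without, and the 7260 in Y220C cells were 3545 in those without. The causes were not tested, apart from fewer libraries in the last.

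Of the MS78 log2 fold changes named in the report, those of leukocyte genes reversed as follows. With a replicate block they were −0.084 (CST7), −0.50 (PRF1) and −0.37 (CD74) in null and −0.25 (CD74), −0.57 (PRF1) and −0.046 (GZMA) in Y220C cells. With the PTPRC level as covariate they were −0.43 (PRF1), −0.21 (NKG7), −0.32 (CD74) and −0.018 (LCP1) in null and −0.28 (CD74), −0.62 (PRF1), −0.38 (NKG7) and −0.62 (GZMA) in Y220C cells. In libraries without PTPRC reads CD74 was −1.004 in null and −1.82 in Y220C cells; genes with at most 3 reads in each of those libraries got no value there. With 2 terms they were −0.24 (GZMH), −0.072 (FCGR3A) and −0.11 (GZMK) in null and −0.37 (GZMH) and −1.14 (GZMK) in Y220C cells. With 1 library left out, null values ran from −2.07 to 1.84 (CST7), −1.20 to 2.48 (GZMH), −0.96 to 2.92 (ADGRG3) and −0.077 to 0.94 (PRF1), each lowest without Null DMSO 1, and Y220C values from −0.86 to 1.01 (CD74), −0.088 to 0.93 (PRF1) and −0.0075 to 1.48 (NKG7), each lowest without Y220C DMSO 1.

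The replicate block left 161 genes for the set, 9 host-line genes, 0 pattern genes between lines and 3950 and 7201 MS78 calls. Over host-line genes, deviations of same-numbered libraries correlated at −0.129 to 0.260, in both directions. Between lines over all genes they correlated at −0.057 to 0.531, highest for replicate 1 of DMSO (0.452) and of MS78 (0.531). The PTPRC set and the FCGR3A split followed the replicate numbers alike in both lines. Why the numbers link the lines in these genes was not tested. No paired analysis was possible for MS78 within the set because its DMSO and MS78 libraries share no replicate number within a line.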
